A study of Canis lupus familiaris with 12 samples.

Results

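FOXO1 and FOXO3 are forkhead transcription factors, and the other 8 genes described here, CCNG2, KLHL24, BCL6, PCK1, CREBRF, TCP11L2, SESN1 and SESN3, are FOXO targets or genes that accompany the withdrawal of growth signals. The 10 genes are 10 of the 15115 genes that the array measured, and they were chosen partly by their rise after 12 h of masitinib in these same arrays. Each gene was read from every probe set that carried its symbol in the platform annotation, 25 probe sets in all, and is represented by the brightest of them, that with the highest mean over all arrays. No filter on low values was applied, and all 10 genes were measured.

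The arrays came from C2, a cell line grown from a canine mast cell tumour. In all samples it carries a tandem duplication in the juxtamembrane part of KIT, the receptor for stem cell factor. In untreated cells KIT thus signals without its ligand. Flasks of passages 3 to 10 were collected at time point 0 before treatment (0 h, the control) or after 12, 24 and 72 h with 100 nM masitinib, an inhibitor of KIT and related tyrosine kinases, with 3 arrays per time point and 12 in all. The replicates are flasks of 1 cell line, so the errors below cover the spread between these samples only. No untreated flask of 12, 24 or 72 h is analysed here, so that the drug and the hours in culture cannot be told apart. Values are log2 expression values on a scale that quantile normalization made common to all arrays, and levels of different genes are not compared because each probe set has its own response.

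Receptor tyrosine kinases such as KIT activate PI3K and the kinase AKT. AKT phosphorylates FOXO proteins, which then leave the nucleus and are held in the cytoplasm by 14-3-3 proteins; when the signal stops, FOXO proteins return to the nucleus and switch on genes of cell cycle arrest, of stress defence, of autophagy and of fasting metabolism. The activity of FOXO is thus set mostly on the protein, whereas the arrays measured messenger RNA only. FOXO factors are known to act on their own genes and on genes that feed back on growth signalling, and in blood cells they are known for keeping resting cells at rest.

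The cells carried the messenger RNA of mast cells throughout. Of 9 mast cell markers 8 were measured, with mean levels above those of 79.3% to 100% of the probe sets, and their summed level was 16.14 to 16.18 at 0 h and 16.79 to 16.87 at 72 h (log2). Markers of other cells reached percentiles of up to 78.1 (epithelium), 77.7 (macrophage), 69.5 (T cell), 47.4 (B cell) and 35.0 (fibroblast). None of the 7 macrophage and 5 fibroblast markers was called against 0 h, and of the 4 measured B cell markers CD79A rose at 72 h. The summed level of the 4 measured epithelial markers was 9.13 to 9.22, 9.80 to 10.05, 9.19 to 9.25 and 7.85 to 7.95 at 0, 12, 24 and 72 h, with EPCAM and KRT18 called up at 12 h and down at 72 h (-1.54 and -1.15) and CDH1 up at 72 h. That of the 5 T cell markers was 8.67 to 8.80, 8.99 to 9.14, 8.78 to 8.93 and 8.27 to 8.34, with CD3D and LCK called down at 72 h (-1.11 and -0.66) and LCK up at 12 h. All samples are of 1 cell line, and in a bulk sample fewer cells with a transcript and less of it per cell cannot be told apart. The 36 probe sets of bacterial poly-A spike-in controls read 0.293, 0.603 and 0.471 higher (log2) at 12, 24 and 72 h than at 0 h. If equal amounts had been added, every log2 change below against 0 h would be lower by these amounts, so that rises would be smaller and falls larger; each of the 30 changes of the 10 genes would keep its direction, although that of SESN3 at 72 h would come to 0.01.

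FOXO1 binds DNA at forkhead elements and controls fasting metabolism and lymphocyte homing. Its log2 values were 8.14, 8.12 and 7.92 at 0 h, 8.92, 8.98 and 9.01 at 12 h, 9.01, 9.21 and 9.16 at 24 h and 9.32, 9.27 and 8.62 at 72 h. Every treated array lay above every untreated array, and the treated times overlapped one another. Against 0 h the log2 change was 0.91, 1.06 and 1.01 (SE 0.148, n = 3 arrays per time point), or 1.88-fold, 2.09-fold and 2.02-fold. These changes against 0 h, like those of the other 9 genes, are given without a test, because the 0 h and 12 h values served to choose the genes. The 2 dimmer probe sets of FOXO1 gave changes of 1.46 and 1.26 at 12 h and of 1.65 and 1.47 at 72 h, with wider errors (SE 0.363 and 0.312). Replicate 3 at 72 h was the lowest of its time point on each of the 3 probe sets, and without it the change at 72 h was 1.24. On that array the 3' actin control probe sets were 1.68 (log2) above the 5' ones, the largest of the 12 arrays, for which the lowest was 0.963. The same difference for GAPDH was 0.383 on that array, within the range of 0.235 to 0.512. The part of this in the low values was not tested.

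FOXO3 is the member of the family known best for arrest and for stress defence in blood stem cells. Its single probe set read 7.90, 7.80 and 7.73 at 0 h, 8.68, 8.61 and 8.64 at 12 h, 8.83, 8.77 and 8.86 at 24 h and 8.67, 8.55 and 8.56 at 72 h. The 24 h arrays were the highest, and the 12 h and 72 h arrays overlapped. The log2 change against 0 h was 0.83, 1.01 and 0.78 (SE 0.063), or 1.78-fold, 2.02-fold and 1.72-fold. FOXO4, another factor of the family and no member, read near the level at which it started, with means of 4.82, 4.81, 4.87 and 4.86 at 0, 12, 24 and 72 h. Its changes were -0.02, 0.05 and 0.03 against 0 h (SE 0.101, adjusted p = 0.935, 0.749 and 0.835 from limma). The only probe set of FOXO4 was dim, with a mean of 4.84 over all arrays, so that a change of its messenger RNA could have been missed.

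**Figure D1:**
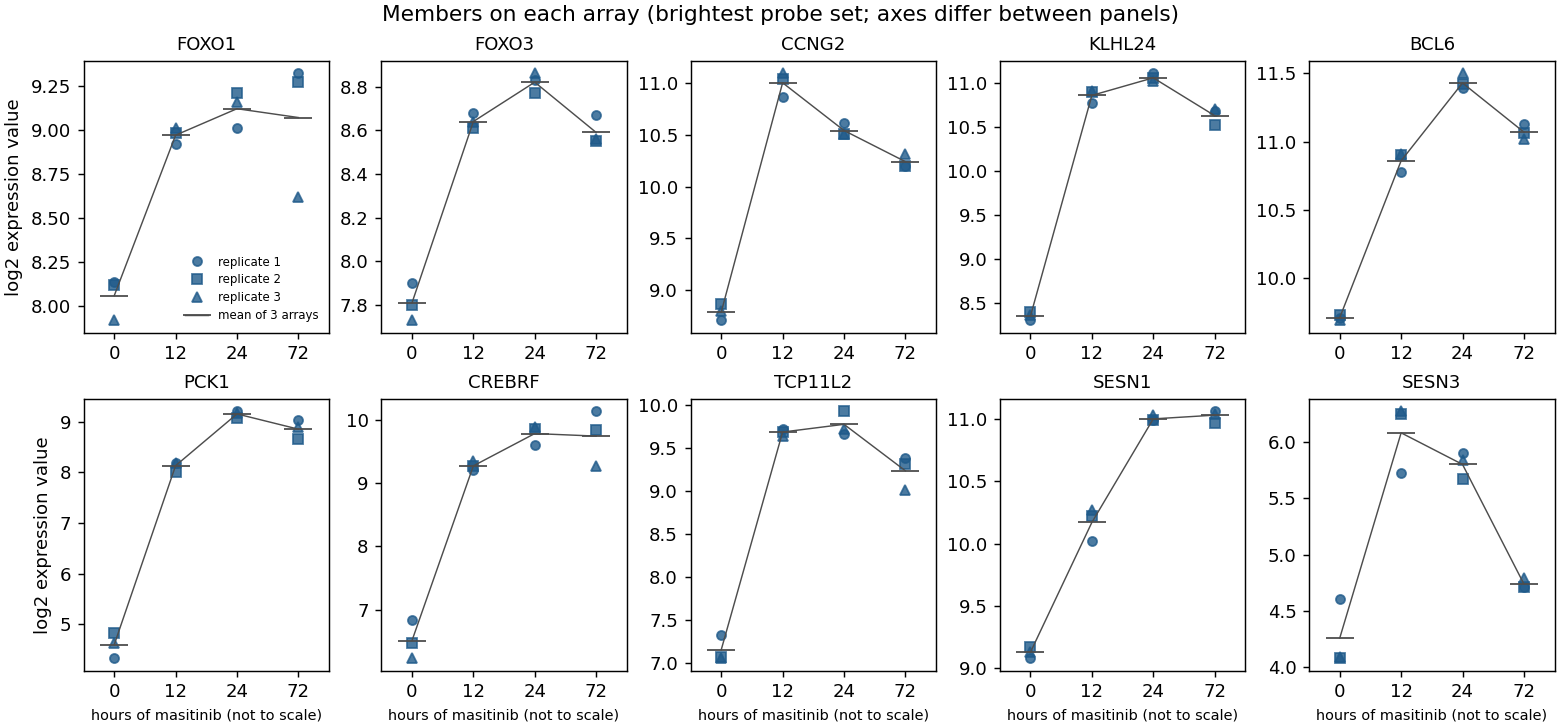
Log2 expression value of each of the 10 genes on each of the 12 arrays, by hours of masitinib; points are arrays, with a shape per replicate number, and horizontal marks are means of 3 arrays joined by a line. In each panel all 12 h arrays lie above all 0 h arrays, a rise for which the genes were partly chosen. SESN3 comes back to 4.71 to 4.79 at 72 h, close to its highest 0 h array at 4.61.

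CCNG2 is an unusual cyclin that accompanies cell cycle exit and is known as a direct FOXO target. It read 8.71, 8.87 and 8.80 at 0 h, 10.86, 11.04 and 11.09 at 12 h, 10.61, 10.51 and 10.51 at 24 h and 10.20, 10.20 and 10.31 at 72 h. No time point overlapped another, 12 h was the highest, and CCNG2 and SESN3 were the genes of the 10 whose mean was highest at 12 h. The log2 change against 0 h was 2.21, 1.75 and 1.44 (SE 0.0743), or 4.61-fold, 3.36-fold and 2.72-fold. The second probe set gave 2.33, 1.82 and 1.57 (SE 0.0725), the same order of times.

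KLHL24 is a substrate adaptor of a ubiquitin ligase. Its arrays read 8.30, 8.39 and 8.36 at 0 h, 10.77, 10.90 and 10.91 at 12 h, 11.11, 11.06 and 11.02 at 24 h and 10.68, 10.52 and 10.70 at 72 h. The 24 h arrays stood above all others and the 0 h arrays below all others. The log2 change against 0 h was 2.51, 2.71 and 2.28 (SE 0.0681), or 5.70-fold, 6.55-fold and 4.86-fold, and the dimmer probe set gave 2.27, 2.22 and 1.63 (SE 0.0868).

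BCL6 is a transcriptional repressor of germinal centre B cells that FOXO factors are known to induce. Its single probe set read 9.71, 9.73 and 9.69 at 0 h, 10.78, 10.90 and 10.91 at 12 h, 11.39, 11.42 and 11.50 at 24 h and 11.13, 11.06 and 11.02 at 72 h. The 4 time points did not overlap and ran in the order 0, 12, 72 and 24 h. The log2 change against 0 h was 1.15, 1.72 and 1.36 (SE 0.0605), or 2.23-fold, 3.30-fold and 2.57-fold.

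PCK1 makes phosphoenolpyruvate from oxaloacetate in the cytosol, the entry step of glucose synthesis in liver and kidney, and is a classical FOXO1 target. It read 4.33, 4.84 and 4.64 at 0 h, 8.18, 8.01 and 8.19 at 12 h, 9.20, 9.07 and 9.16 at 24 h and 9.03, 8.65 and 8.89 at 72 h. This was the largest change of the 10 genes at each time, 3.53, 4.54 and 4.25 on the log2 scale (SE 0.123), or 11.5-fold, 23.3-fold and 19.1-fold. The 0 h values lie in the dim part of the array, so that these folds rest on a low starting level. The other 2 probe sets of PCK1 were dim on all arrays, with means of 4.39 and 4.32, and gave smaller changes. The first of them had 0.51, 1.00 and 0.94 at 12, 24 and 72 h (SE 0.211), with no overlap with 0 h at 24 h only, and the other 0.21, 0.19 and 0.16 (SE 0.0874).

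CREBRF is a regulator of the CREB3 transcription factors and of the cell's response to starvation. It read 6.83, 6.47 and 6.23 at 0 h, 9.21, 9.26 and 9.34 at 12 h, 9.60, 9.86 and 9.89 at 24 h and 10.13, 9.83 and 9.26 at 72 h. The 72 h arrays spread over the range of both earlier treated times, with replicate 3 lowest, as for FOXO1. The log2 change against 0 h was 2.76, 3.27 and 3.23 (SE 0.192), or 6.78-fold, 9.67-fold and 9.38-fold, second only to PCK1 at each time. A dimmer probe set gave 2.45, 2.95 and 2.91 and the dimmest 0.75, 1.06 and 0.88. TCP11L2, which is named for its likeness to a testis protein, read 7.32, 7.07 and 7.05 at 0 h, 9.71, 9.68 and 9.63 at 12 h, 9.66, 9.92 and 9.72 at 24 h and 9.38, 9.31 and 9.01 at 72 h. Its 12 h and 24 h arrays overlapped and its 72 h arrays lay between these and 0 h. The log2 change was 2.53, 2.62 and 2.09 (SE 0.105), or 5.78-fold, 6.16-fold and 4.24-fold, and its other 3 probe sets gave 2.07, 2.38 and 0.91 at 12 h.

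Sestrins bind the GATOR2 complex, restrain the growth kinase TORC1 and take part in oxidant defence, and the 2 sestrins among the genes had different courses. SESN1 read 9.08, 9.17 and 9.13 at 0 h, 10.02, 10.22 and 10.27 at 12 h, 10.99, 10.99 and 11.03 at 24 h and 11.06, 10.97 and 11.04 at 72 h, so that it climbed until 24 h, and its 24 h and 72 h arrays overlapped. The log2 change against 0 h was 1.04, 1.87 and 1.90 (SE 0.0693), or 2.06-fold, 3.67-fold and 3.72-fold. Of the other 4 probe sets of SESN1, 3 gave 0.93 to 1.06 at 12 h and 1.60 to 1.97 at 72 h, and the dimmest, with a mean of 3.46, gave -0.10 and -0.59. SESN3 read 4.61, 4.08 and 4.09 at 0 h, 5.72, 6.25 and 6.27 at 12 h, 5.90, 5.67 and 5.84 at 24 h and 4.71, 4.71 and 4.79 at 72 h. Its log2 change was 1.82, 1.54 and 0.48 (SE 0.157), or 3.53-fold, 2.91-fold and 1.39-fold. SESN3 was measured by 1 probe set, which was dimmer than the brightest probe sets of the other 9 genes.

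**Figure D2:**
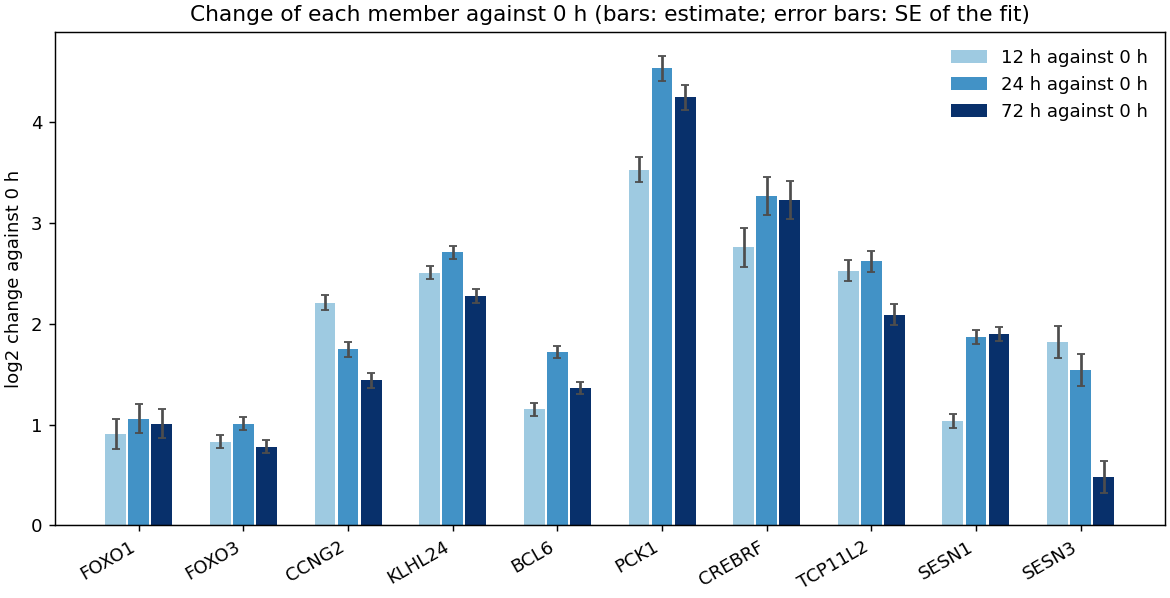
Log2 change of each of the 10 genes at 12, 24 and 72 h against 0 h; bars are the estimates from 3 arrays per time point and error bars the SE of the fit. PCK1 reaches 4.54 and CREBRF 3.27 at 24 h, while SESN3 is at 1.82 at 12 h and 0.48 at 72 h.

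The comparison of 72 h with 24 h asks whether the early level was kept, and it does not use the rise at 12 h for which the genes were partly chosen. The genes were named with results of all time points known, so its p-values are not independent of the choice. A gene was called when its adjusted p from limma was under 0.001 and its change over 1.5-fold, thresholds that the study's methods applied to q-values of an analysis of variance. Of the 10 genes SESN3 fell and none rose, where 1.81% of all 15115 genes fell and 1.96% rose. Among the 644 genes called up at 12 h, 8.07% fell and 6.37% rose after 24 h. SESN3 had a log2 change of -1.06 between 24 h and 72 h (95% interval -1.40 to -0.72, adjusted p = 0.000397 from limma, lower on all 3 arrays), that is to 0.479 of its 24 h level. With that analysis of variance the q-value of SESN3 was 0.00311, and with the replicate block the adjusted p from limma was 0.00147, so that none of the 10 genes was called by either. Each of the 24 h and 72 h arrays, left out by itself, took this call of SESN3 away. The limma adjusted p was then 0.00255, 0.00125 and 0.00247 without replicates 1, 2 and 3 at 24 h, and 0.00224, 0.00229 and 0.00146 without replicates 1, 2 and 3 at 72 h, with log2 changes of -1.01 to -1.13. These fits hold fewer samples. Dimmer probe sets of KLHL24 (-0.59, adjusted p = 0.000367 from limma) and TCP11L2 (-0.72, adjusted p = 0.000815) also passed as falls, while the brightest probe sets of these genes did not. With the arrays scaled to the poly-A controls the change of SESN3 was -0.93 (adjusted p = 0.000168 from limma). The summed levels of epithelial and T cell markers, given above, were also lower at 72 h than at 24 h. Of the single markers EPCAM, KRT18, KRT8, CD3D, LCK and CD2 had lower means, and CDH1, CD3G and CD3E higher ones. A link between these transcripts and the fall of SESN3 in this cell line was not tested.

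Smaller falls after 24 h among the 10 genes depended on the scaling. At an adjusted p under 0.05 with no limit on the fold, a threshold chosen after the values were seen, 6 of 10 were lower at 72 h than at 24 h and 0 were higher, where 10.5% of all genes were lower and 10.5% higher, and where 30.1% of the genes called up at 12 h were lower. TCP11L2 had a log2 change of -0.54 (95% interval -0.77 to -0.31, adjusted p = 0.00278 from limma), KLHL24 -0.43 (-0.58 to -0.28, adjusted p = 0.000656), BCL6 -0.36 (-0.50 to -0.23, adjusted p = 0.000909), CCNG2 -0.31 (-0.47 to -0.15, adjusted p = 0.0109) and FOXO3 -0.23 (-0.37 to -0.09, adjusted p = 0.0219). For each of these 5 genes the 72 h arrays lay below the 24 h arrays without overlap, and still above the 0 h arrays. These genes had passed on the same arrays, so the lack of overlap adds no support. The share of all genes without such overlap was not counted. With the arrays scaled to the poly-A controls 1 of the 10 genes, SESN3, passed in place of 6, where 2.67% of all genes were lower: TCP11L2 had -0.41 (adjusted p = 0.0671 from limma), KLHL24 -0.30 (0.140), BCL6 -0.23 (0.281), CCNG2 -0.18 (0.412) and FOXO3 -0.10 (0.675). The adjusted p of FOXO3 was also 0.056 without 24 h replicate 1, 0.0861 without 24 h replicate 3, 0.0707 without 72 h replicate 2 and 0.0689 without 72 h replicate 3 (limma).

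The remaining 4 genes did not pass even this threshold. PCK1 had -0.29 (95% interval -0.56 to -0.02, adjusted p = 0.137 from limma), FOXO1 -0.05 (-0.38 to 0.27, adjusted p = 0.872), CREBRF -0.04 (-0.46 to 0.37, adjusted p = 0.923) and SESN1 0.02 (-0.13 to 0.17, adjusted p = 0.884). The interval of SESN1 keeps its change within 0.17 of 0 in either direction, whereas those of FOXO1 and CREBRF are wider. Scaled to the poly-A controls FOXO1 and CREBRF changed sign, to 0.08 and 0.09, and SESN1 had 0.15. Without 72 h replicate 3 FOXO1 had 0.17 and CREBRF 0.20, and without 24 h replicate 3 CREBRF had 0.01, none of which passed.

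**Figure D3:**
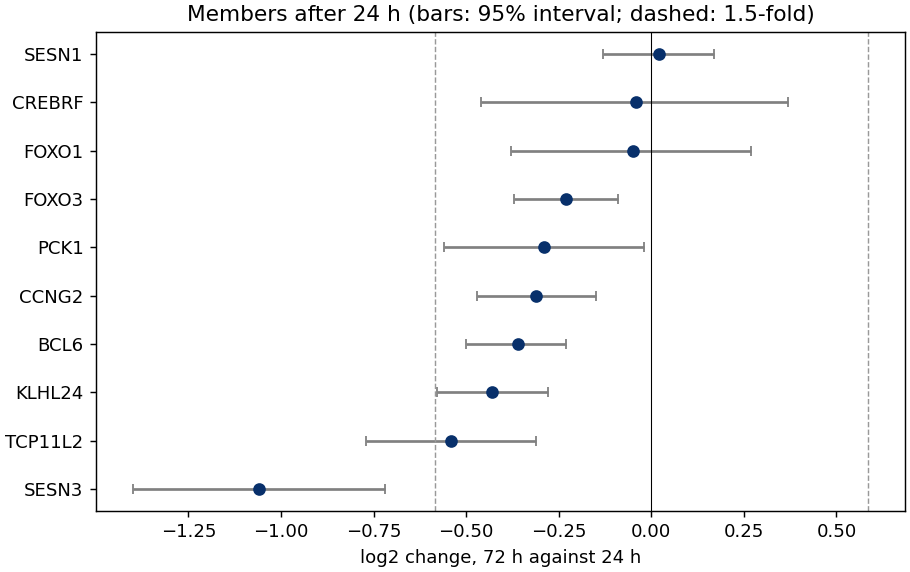
Log2 change of the 10 genes from 24 h to 72 h of masitinib with the 95% interval of the fit as bars; dashed lines mark 1.5-fold. SESN3 lies at -1.06 with its whole interval beyond the 1.5-fold line, and the intervals of FOXO1, CREBRF and SESN1 span 0.

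Other genes of the FOXO pathway, of quiescence and of the partners of the 10 genes were taken from lists that hold none of the 10, with 146 of 168 listed genes measured. Earlier results of these data were known when the lists were made, so that their shares of called genes give no independent support. Rises numbered 24, 31 and 32 of these 146 genes at 12, 24 and 72 h against 0 h, and falls 3, 9 and 8. The shares of all genes were 4.26%, 8.01% and 8.73% for rises and 6.30%, 10.0% and 11.0% for falls. With arrays scaled to the poly-A controls the numbers were 15, 13 and 18 rises and 18, 50 and 40 falls, where 1.84%, 2.08% and 3.58% of all genes rose and 14.3%, 46.8% and 30.7% fell. Between 24 h and 72 h 3 of the 146 rose and 1 fell, or 2.05% and 0.685%, where 1.96% of all genes rose and 1.81% fell. The share of rises was thus close to that of all genes.

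Quiescence genes outside the FOXO lists had the largest share of rises among the lists, 52.9%, 58.8% and 58.8% at 12, 24 and 72 h. The lists were drawn up with earlier results of these data known, so that this share gives no independent support. Of 17 measured genes 9, 10 and 10 rose and none fell, with medians of 0.88, 1.06 and 0.95 on the log2 scale, where the median over all genes was 0.01, 0.03 and 0.02. TXNIP, which binds thioredoxin and limits glucose uptake, rose by 3.13, 3.89 and 3.92 (SE 0.0668), and ZBTB20, a zinc finger repressor, by 1.61, 2.42 and 2.66 (SE 0.0888), though 1 of its 3 probe sets gave 0.03 at 12 h. HBP1, a repressor of cell cycle genes, rose by 2.16, 2.20 and 2.32 (SE 0.0714). PDCD4, which restrains translation, rose by 1.43, 1.75 and 2.07 (SE 0.0578).

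The FOXO targets outside the 10 genes had calls in both directions. Of 56 measured targets 10, 12 and 13 were higher by the test and 2, 5 and 5 lower at 12, 24 and 72 h, with medians of 0.08, 0.12 and 0.13. As shares of the 56, 17.9%, 21.4% and 23.2% were higher and 3.57%, 8.93% and 8.93% lower. Of all genes 4.26%, 8.01% and 8.73% rose and 6.3%, 10.0% and 11.0% fell. The counts do not separate targets that FOXO factors induce from those that they repress, such as cyclin D1. In the cell cycle group 3, 4 and 5 of 9 rose and 2, 3 and 3 fell. RBL2, the pocket protein of resting cells, rose by 1.15, 1.42 and 1.52 (SE 0.0696). Its 3 dimmer probe sets gave 0.91, 0.38 and 0.11 at 12 h and 0.96, 0.26 and 0.04 at 72 h. CDKN1A, the CDK inhibitor p21, came later, with 0.13 at 12 h, which did not pass, then 0.63 and 1.56 (SE 0.101), but its 2 dimmer probe sets gave 0.14 and 0.13 at 72 h. CCND1, the cyclin D1 that FOXO factors repress, fell by 1.94, 1.99 and 1.56 (SE 0.08). PLK1, a mitotic kinase, had -0.12 at 12 h, which did not pass, and fell by 2.46 and 2.86 at 24 h and 72 h (SE 0.123).

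In the group of autophagy and protein breakdown 4, 4 and 5 of 14 genes rose and none fell. These rises were 28.6%, 28.6% and 35.7% of the group. Of all genes 4.26%, 8.01% and 8.73% rose and 6.3%, 10.0% and 11.0% fell. FBXO32, the ubiquitin ligase atrogin-1 of wasting muscle, rose by 1.60, 1.62 and 1.34 (SE 0.07), with close values on its other 2 probe sets. MAP1LC3B, which coats autophagosomes, rose by 1.02, 1.37 and 1.68 (SE 0.0509). TRIM63, another ligase of muscle wasting, rose by 0.94 at 12 h and 1.52 at 72 h (SE 0.17) and had 0.75 at 24 h, which did not pass. GLUL, which makes glutamine, rose by 0.91 and 0.66 at 12 h and 24 h (SE 0.117) and had 0.51 at 72 h, below the threshold.

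In the remaining target groups most genes did not pass the test at any time point. Rises were 16.7%, 33.3% and 33.3% of the cell death group and 12.5%, 12.5% and 0% of the oxidant defence group. Of the metabolic genes and receptors 7.14% rose at each time, and 0%, 14.3% and 14.3% fell. Of all genes 4.26%, 8.01% and 8.73% rose and 6.3%, 10.0% and 11.0% fell. In the cell death group 1, 2 and 2 of 6 genes rose, BNIP3L, a mitophagy receptor, by 1.15, 1.26 and 0.99 (SE 0.0597) and TNFSF10, the death ligand TRAIL, by 0.59 at 24 h and 1.67 at 72 h (SE 0.0653); the 24 h value of TNFSF10 is smaller than the 0.603 of the poly-A controls and is below 0 when scaled to them. In the oxidant defence group 1, 1 and 0 of 8 rose: catalase, CAT, had 0.78, 1.00 and 0.45 (SE 0.0955), the last of which did not pass. Of 14 metabolic genes and receptors 1, 1 and 1 rose and 0, 2 and 2 fell. IGF1R, a growth factor receptor, rose by 0.76, 0.94 and 1.20 (SE 0.0906), while PDK4, which shuts pyruvate out of the citrate cycle, fell by 1.01 and 1.37 at 24 h and 72 h (SE 0.0959; 0.02 on its second probe set at 72 h) and LPL, a lipase, fell by 1.19 and 1.70 (SE 0.164). None of the 5 measured lymphocyte targets was called at any time (limma). All 5 were dim, with means of 4.18 to 4.77, so that the lack of a call does not show that they kept their level. Some other uncalled genes of these groups were also dim, such as PPARGC1A (mean 3.81) and SELENOP (3.69).

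**Figure D4:**
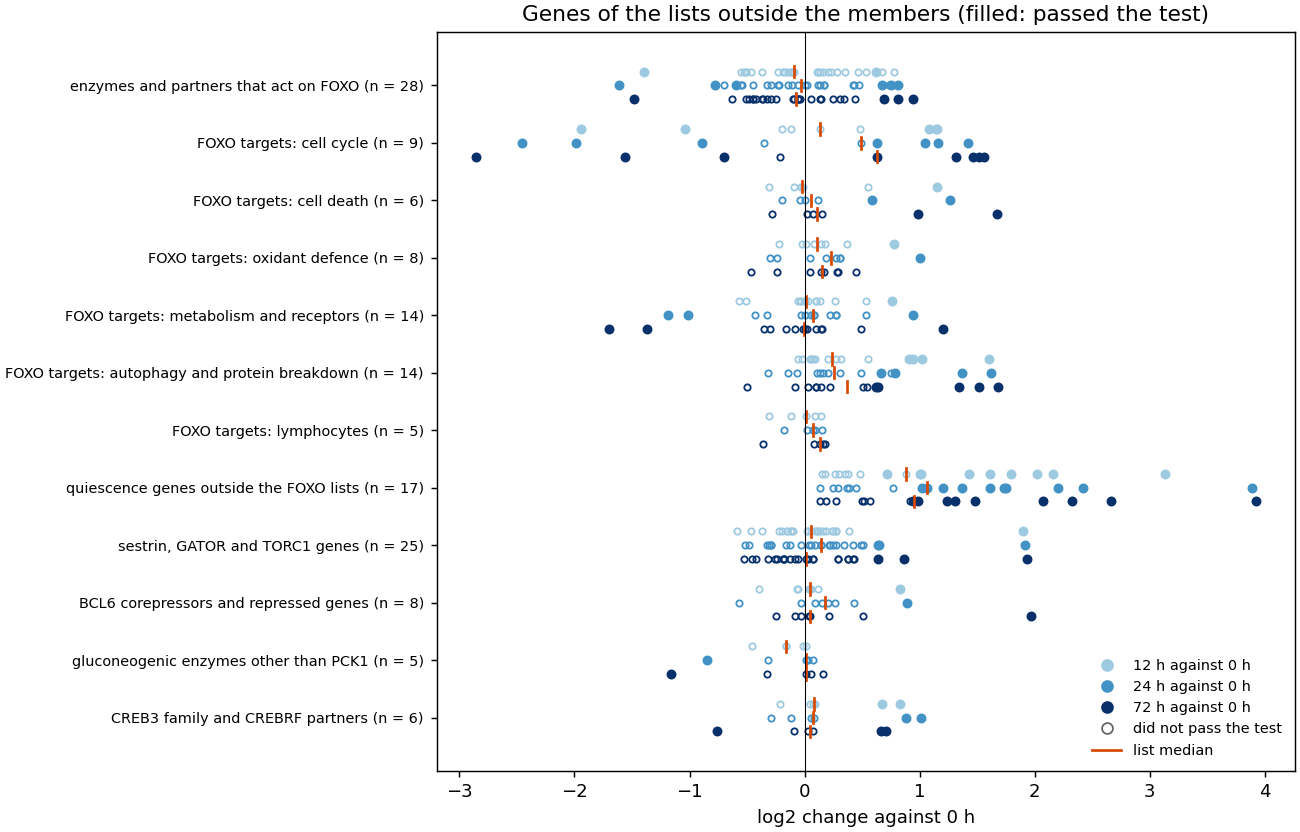
Genes of 12 lists outside the 10 genes, with the log2 change from 0 h to 12, 24 or 72 h on the x axis; a point stands for a gene, is filled if the gene passed the test, and orange marks are list medians. The quiescence genes have medians of 0.88, 1.06 and 0.95, and the medians of the other 11 lists lie between -0.16 and 0.63.

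Among 28 measured enzymes and partners that act on FOXO proteins 1, 3 and 3 rose and 1, 3 and 1 fell. These rises were 3.57%, 10.7% and 10.7% of the list, near the 4.26%, 8.01% and 8.73% of all genes that rose. The falls were 3.57%, 10.7% and 3.57%, where 6.3%, 10.0% and 11.0% of all genes fell. YWHAG, the gamma form of the 14-3-3 proteins that hold phosphorylated FOXO, fell by 1.40, 1.61 and 1.48 (SE 0.0581), and its second probe set gave -1.26 and -1.37 at 12 h and 72 h. XPO1, the exporter that carries FOXO out of the nucleus, fell by 0.78 at 24 h (SE 0.0604) and had -0.53 and -0.45 at 12 h and 72 h, which did not pass. The second probe set of XPO1 gave -0.67, -1.14 and -0.88 at 12, 24 and 72 h. CREBBP, an acetylase of FOXO, rose by 0.62, 0.81 and 0.81 (SE 0.0642). SGK1, a kinase related to AKT, rose at 72 h only among the 3 times, by 0.94 (SE 0.0946), and had -0.10 and 0.43 before.

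Among the partners of single genes, 1, 3 and 3 of 25 sestrin, GATOR and TORC1 genes rose and none fell. These rises were 4.0%, 12.0% and 12.0% of the list, near the 4.26%, 8.01% and 8.73% of all genes that rose. Of all genes 6.3%, 10.0% and 11.0% fell. DEPTOR, an inhibitor of TORC1, rose by 1.90, 1.92 and 1.93 (SE 0.191), TSC2, a brake on TORC1, by 0.65 and 0.64 at 24 h and 72 h (SE 0.0841), WDR59, a subunit of GATOR2, by 0.86 at 72 h (SE 0.0897) and FNIP2, a folliculin partner, by 0.64 at 24 h (SE 0.118). Of 8 BCL6 corepressors and repressed genes only CD44, an adhesion receptor that BCL6 represses, was called: it rose by 0.83, 0.89 and 1.97 (SE 0.11). Of the 5 gluconeogenic enzymes other than PCK1 none rose, and PCK2, the mitochondrial form, fell by 0.85 and 1.16 at 24 h and 72 h (SE 0.126), opposite to PCK1. Of 6 CREB3 factors and CREBRF partners, CREB3L3 rose by 0.67, 0.88 and 0.71 (SE 0.0944) and CREB3L4 by 0.83, 1.01 and 0.66 (SE 0.113). NR3C1, the glucocorticoid receptor, fell by 0.76 at 72 h (SE 0.0873), with 0.15 and -0.97 on its other probe sets. Several genes named from the lists had dimmer probe sets with smaller changes at 72 h. The lowest such value was 0.47 for MAP1LC3B, 0.14 for TRIM63, 0.19 for IGF1R, 0.41 for CREBBP, 0.22 for SGK1, 0.30 for CD44, 0.47 for CREB3L3, 1.15 for HBP1 and 2.82 for TXNIP. Another dimmer probe set gave a larger change at 72 h than the brightest for IGF1R (2.24), CREBBP (0.92) and HBP1 (2.44). For FNIP2, called at 24 h, the dimmer probe sets gave 0.06 and -0.20 at that time.

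The genes with the most similar course were sought among 7549 genes at or above the median level, by Pearson's r over the 12 arrays. These arrays share 4 time points, so r mostly reflects the order of the time means, and it is given as a description. For FOXO3 the closest were the transcription cofactor DACH1 (r = 0.994), BNIP3L (0.993), the muscle troponins TNNC1 (0.992) and TNNT1 (0.989) and DHDH, a dehydrogenase (0.988). TNNC1 and TNNT1 had log2 changes of 1.79, 2.24 and 1.80 and of 1.33, 1.82 and 1.43 at 12, 24 and 72 h. For CCNG2 they were the bromodomain protein BRD8 (0.993), RFX5, which activates MHC class II genes (0.992), the Golgi adaptor GGA2 (0.986), the growth factor VEGFD (0.986) and ARL6IP5 (0.982). For FOXO1 they were HMBOX1 (0.985), GOLIM4 (0.980), MYADM (0.979), BAZ2B (0.974) and the cohesin loader NIPBL (0.974). None of the 3 sets of 5 genes shared a gene with another.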

How the data were processed

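The RNA of C2 cells was hybridised to 12 arrays (Affymetrix Canine Genome 2.0), 3 per time point. The authors imported the scans into Partek Genomics Suite and ran its gcRMA workflow (RMA background correction, quantile normalization, median polish), and each deposited value is the log2 expression of a probe set on an array. Quantile normalization removes any change that most transcripts share.

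From these values limma 3.58.1 in R 4.3.3 (lmFit, eBayes, 1 coefficient per time point) was fitted to the 42924 probe sets left after 111 controls, with Benjamini-Hochberg adjustment over all of them. Tables and plots were made in Python 3.11.15 with numpy 2.4.6, pandas 2.3.3 and matplotlib 3.10.9. Symbols came from the platform annotation: 29254 probe sets had 1, 439 several and 13231 none, and for 27680 the Entrez identifier gave the current symbol in the assembly UU_Cfam_GSD_1.0. The members and lists were chosen with earlier results of these data known. The list membership comes from general knowledge. Of each list up to 4 called genes with the largest change against 0 h are named, with all 10 members, the 5 genes most like FOXO1, FOXO3 and CCNG2 in their course, and markers.

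Precision is limited by how few arrays there are, with a median residual SD of 0.112 (log2). No 2 arrays were identical. The fit was tested on simulated data. Alternatives covered the spread estimate, the methods' analysis of variance with q-values, the arrays in the fit, thresholds, dim probe sets, scaling, which probe set stands for a gene, a block for the replicate number, and leaving out arrays in turn. Untreated flasks after 0 h and the protein experiments are not analysed here.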

Additional observations from a re-analysis of the deposited data

Results flagged for a closer look

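For the 10 genes only 24 h and 72 h were compared by a test, and there only SESN3 was called by its brightest probe set. Its change against 0 h at 72 h minus that at 24 h was -1.06 on the log2 scale (adjusted p = 0.000397 from limma, lower on 3 of 3 arrays). The probe set is dim, with a mean of 5.22 over the 12 arrays, above 39.1% of the probe sets, and the call was lost on leaving out any 1 of the 24 h or 72 h arrays (adjusted p = 0.00125 to 0.00255), with the methods' analysis of variance (q = 0.00311) and with the replicate block (adjusted p = 0.00147). Why SESN3 fell and SESN1 did not was not tested.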

How the results depend on the processing

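The number of arrays, and for SESN3 and PCK1 at 0 h the low signal, limit these results. No called change of the 10 genes reversed under the alternatives run, though uncalled changes of FOXO1 and CREBRF between 24 h and 72 h turned positive with poly-A scaling (0.08 and 0.09) and without 72 h replicate 3 (0.17 and 0.20), and that of CREBRF without 24 h replicate 3 (0.01). For 72 h against 24 h the number of the 10 genes that fell was 1 and became 0 with the methods' analysis of variance and q-values (SESN3: q = 0.00311), without the dimmest 40% of probe sets, which leaves SESN3 out, and with the replicate block (adjusted p = 0.00147), and 6 at an adjusted p under 0.05 at any fold, added after the data were seen (1 with poly-A scaling, 5 or 6 with each array left out, 5 without the dimmest 40% and with only the time points compared); it was 0 to 1 with each array left out. Of the listed genes, over 2-fold change left 15, 19 and 18 rises at 12, 24 and 72 h, 5 falls at 24 h and 0 falls between 24 h and 72 h. Scaling to poly-A controls gave 15, 13 and 18 rises and 18, 50 and 40 falls against 0 h and 5 rises and 0 falls between 24 h and 72 h. Equal array medians gave 5 falls at 12 h, the probe set with the largest F statistic 5 falls at 12 h, 16 at 72 h and 2 between 24 h and 72 h, and a fit of only the time points compared 0 falls between 24 h and 72 h. With each array left out there were 3 to 5 falls at 12 h and 1 to 2 between 24 h and 72 h. The cause of these shifts was not tested. The replicate numbers did not pair the arrays: same-numbered arrays of different times deviated from their group means with correlations from -0.329 to 0.411 (other pairs -0.455 to 0.461). With the replicate block 24, 31 and 32 listed genes rose and 3, 10 and 8 fell. The search for FOXO motifs in promoters was not run, as no promoter sequence was used here.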

Other observations

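Further genes of the lists, chosen after their values were seen, also passed the test at 1 or more time points. CDKN1B, the CDK inhibitor p27 and a classical FOXO target, rose by 1.14, 1.05 and 1.46 at 12, 24 and 72 h against 0 h (log2, SE 0.12, 1 probe set), and GADD45B, a stress response gene, by 1.08, 1.16 and 1.32 (SE 0.095). PIK3IP1, an inhibitor of PI3K, rose by 1.79, 1.61 and 1.48 (SE 0.128), with 0.16 and 0.70 at 12 h on its other probe sets, and YPEL5 by 1.01, 1.37 and 1.24 (SE 0.0572). CCND2, cyclin D2, fell by 1.04 at 12 h (SE 0.0586) and had -0.35 and -0.21 at 24 h and 72 h, which did not pass.

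MXD4, a repressor that competes with MYC for MAX, was the listed gene that fell between 24 h and 72 h, with a log2 change of -0.74 (SE 0.0854), after changes of 2.02 and 1.73 at 12 h and 24 h against 0 h. The 3 listed genes that rose between 24 h and 72 h were CDKN1A by 0.92, TNFSF10 by 1.08 and CD44 by 1.08. BCL2L11, the death protein BIM and a much-studied FOXO target, had changes of -0.03, -0.20 and -0.28 (SE 0.096) on a dim probe set with a mean of 4.75, none of which passed the test.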
